A study of Mus musculus with 60 samples.

Results

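Fibrinogen is the soluble plasma protein that thrombin turns into fibrin, the scaffold of a blood clot. It is built from paired copies of an alpha, a beta, and a gamma chain, which are encoded by Fga, Fgb, and Fgg. Hepatocytes are its main source, and its genes are classic acute phase genes that respond to interleukin-6 through STAT3, together with C/EBP transcription factors. Epithelial cells of the injured kidney tubule are also known to express them. The values below concern the mRNA of these 3 genes, out of 55335 genes listed in the count tables, in kidney. They were picked by name, matching Ensembl identifiers to GENCODE symbols, because their levels in these same groups were known to differ. Levels by genotype and time are therefore described without a test, and tests are given only for other genes and for the variation between mice of the same group. All 3 genes were among the 15546 that reached 1 CPM, a read count scaled to a common library total, in 1 sample or more.

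The samples were kidneys of 60 male C57BL/6J mice. Control mice carried the floxed Bmal1 alleles alone (Bmal1lox/lox), and cKOt mice carried in addition the Pax8-rtTA and LC1 Cre transgenes (Bmal1lox/lox/Pax8-rtTA/LC1 Cre), so that doxycycline removed the clock gene Bmal1 in the renal tubule. Both genotypes drank doxycycline (DOX, 2 mg/ml) for 2 weeks from 8 weeks of age, and kidneys were taken 1 month after it ended, at 6 zeitgeber times (ZT, hours after lights on) 4 h apart under 12 h of light and 12 h of darkness, from 5 mice per group. Pax8-rtTA drives Cre along the segments of the tubule, so the deletion is not aimed at vessels or immune cells. The tissue is labelled as renal tubule, but per the methods frozen pieces of kidney were used, which also hold glomeruli and vessels, after perfusion of the mice with PBS. In such bulk tissue, more cells that express a gene and more mRNA per cell cannot be told apart.

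Libraries held 17791420 to 20906706 counts on genes. Arntl, as the annotation calls Bmal1, ranged from 1.93 to 57.1 CPM in control mice and from 14.6 to 26.8 CPM in cKOt mice, and because reads were counted over the whole gene, its level does not check the deletion itself. Proximal tubule markers were detected in full (8 of 8), with a sum of 11015 to 15799 CPM in control kidneys and 10248 to 16186 CPM in cKOt kidneys. Of these markers, 3 were higher and 4 lower in cKOt mice at an adjusted p below 0.05 (edgeR). Over all retained genes the shares were 26.8% and 23.2%. In the study's own supplement, the cKOt mouse at ZT16 with replicate number 4 is marked for removal, and it was kept here under its label. Without it the log2 fold changes of the chains were 2.39 (Fga), 2.40 (Fgb), and 3.62 (Fgg).

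The 3 chains lie in a single cluster of 42140 bases on chromosome 3 (GRCm38, GENCODE release M21). Fgg (ENSMUSG00000033860) runs on the + strand from 83007724 to 83015049, Fga (ENSMUSG00000028001) on the + strand from 83026076 to 83033627, and Fgb (ENSMUSG00000033831) on the - strand from 83040141 to 83049863. A gap of 11026 bases separates Fgg from Fga, and 6513 bases separate Fga from Fgb. Because the chains lie side by side and were higher together, their promoter windows are shown, from 250 bases before to 50 bases after each start as given by RefSeq on GRCm38.p6. Each is written 5′ to 3′ on the strand of its gene, and capitals mark the matches described next. The windows are chr3:83007474-83007773 for Fgg, chr3:83025903-83026202 for Fga, and chr3:83049814-83050113 for Fgb.
Fgg: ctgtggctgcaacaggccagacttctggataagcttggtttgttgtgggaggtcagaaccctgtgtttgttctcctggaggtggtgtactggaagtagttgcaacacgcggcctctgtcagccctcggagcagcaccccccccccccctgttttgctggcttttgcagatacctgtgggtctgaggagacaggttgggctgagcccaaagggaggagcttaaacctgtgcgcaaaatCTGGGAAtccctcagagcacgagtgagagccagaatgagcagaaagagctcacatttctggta
Fga: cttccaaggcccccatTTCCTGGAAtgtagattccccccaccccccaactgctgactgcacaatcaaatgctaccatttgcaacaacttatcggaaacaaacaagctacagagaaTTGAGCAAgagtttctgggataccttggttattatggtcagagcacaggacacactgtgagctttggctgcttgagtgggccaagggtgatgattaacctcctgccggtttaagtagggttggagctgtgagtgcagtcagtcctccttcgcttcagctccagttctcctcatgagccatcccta
Fgb: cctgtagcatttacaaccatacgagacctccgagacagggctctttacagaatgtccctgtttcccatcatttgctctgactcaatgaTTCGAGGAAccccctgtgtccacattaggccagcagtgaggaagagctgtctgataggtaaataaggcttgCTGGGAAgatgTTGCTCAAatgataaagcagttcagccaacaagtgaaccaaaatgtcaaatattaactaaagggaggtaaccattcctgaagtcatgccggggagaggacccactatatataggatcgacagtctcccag

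The letters of 6 motifs were searched on both strands. CTGGGAA, the core of the interleukin-6 response element of acute phase genes, stood in the windows of Fgg and Fgb, at positions -13 and -91 from the start. It occurs in 11.1% of the 32851 promoter windows in the table. TTCNNNGAA, the palindrome that STAT factors bind, stood in the windows of Fga and Fgb, at -234 and -162, and is present in 8.30% of all windows. TTGCNNAA, a form of the C/EBP site, was found at -135 in Fga, on the opposite strand, and at -80 in Fgb, against 10.8% of all windows. None of the 3 windows held CACGTG, the E-box bound by BMAL1 and CLOCK (7.15% of all windows), or TTATGTAA, the D-box of the PAR bZIP factors (0.938%), or TATAAA (13.6%). The matches shown in capitals did not overlap each other. A match of letters is a description and not a site of binding, and its absence says nothing about sequence outside these windows.

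Fga, the chain with the most reads, was higher in every cKOt kidney than in any control kidney, and its mean was several fold higher. Control mice, listed in the order of replicates 1 to 5, had Fga levels of 33.9, 30.6, 20.9, 17.6, and 21.5 CPM at ZT0, of 24.1, 19.4, 28.6, 30.9, and 16.2 CPM at ZT4, and of 13.0, 17.5, 21.6, 18.8, and 14.6 CPM at ZT8. At ZT12 they had 17.2, 19.7, 18.7, 20.6, and 20.2 CPM, at ZT16 15.2, 33.1, 18.4, 29.9, and 38.9 CPM, and at ZT20 44.8, 28.5, 39.4, 25.1, and 22.7 CPM. The lowest control groups were ZT8 and ZT12. Every control mouse at ZT20 lay above every control mouse at ZT8 and ZT12, though narrowly (22.7 CPM against at most 21.6 CPM). In cKOt mice the levels of Fga were 104, 115, 100.1, 95.0, and 73.5 CPM at ZT0, 87.4, 125, 129, 125, and 84.6 CPM at ZT4, and 144, 113, 179, 94.9, and 136 CPM at ZT8. They were 304, 191, 165, 219, and 129 CPM at ZT12, 98.5, 112, 88.8, 114, and 83.2 CPM at ZT16, and 233, 104, 101, 119.8, and 85.9 CPM at ZT20. Here ZT12 was the highest group, and its lowest mouse (129 CPM) lay above all cKOt mice at ZT16 and ZT0. At ZT20, 1 mouse (233 CPM) stood far from the rest of its group. In both genotypes, the time points compared for such gaps were picked after the values were seen. The share of all genes with gaps of this kind was not counted.

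The means of Fga in the 12 groups ordered themselves first by genotype. From the top they were 202 ± 66.2 CPM in cKOt mice at ZT12, 133 ± 32.1 at ZT8, 129 ± 59.4 at ZT20, 110.2 ± 22.2 at ZT4, 99.3 ± 13.8 at ZT16, and 97.6 ± 15.4 at ZT0 (SD, n = 5 each). Control mice followed with 32.1 ± 9.55 CPM at ZT20, 27.1 ± 10.0 at ZT16, 24.9 ± 6.97 at ZT0, 23.8 ± 6.14 at ZT4, 19.3 ± 1.37 at ZT12, and 17.1 ± 3.39 at ZT8 (SD, n = 5 each). Neighbours in this order overlapped in range throughout, except at the step from the lowest cKOt group to the highest control group, where 73.5 CPM stood against 44.8 CPM.

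Fgg showed the widest separation of the genotypes. In control mice it had 6.25, 5.85, 4.89, 5.86, and 4.87 CPM at ZT0, 7.64, 7.47, 19.9, 7.97, and 4.51 CPM at ZT4, and 4.41, 6.59, 5.40, 5.93, and 4.80 CPM at ZT8. At ZT12 Fgg had 4.82, 4.76, 5.12, 5.51, and 5.12 CPM, at ZT16 3.06, 2.73, 2.58, 3.28, and 5.37 CPM, and at ZT20 7.79, 4.02, 4.96, 5.24, and 4.63 CPM. A single control mouse at ZT4 (19.9 CPM) was well above the rest, the control mice at ZT16 held the lowest values, and the 5 mice at ZT12 lay close together. In cKOt mice Fgg reached 62.8, 79.3, 74.5, 64.4, and 43.6 CPM at ZT0, 47.1, 58.9, 79.3, 73.3, and 58.4 CPM at ZT4, and 53.4, 58.3, 114, 47.6, and 67.4 CPM at ZT8. It had 149, 58.1, 88.7, 71.4, and 88.3 CPM at ZT12, 65.5, 44.3, 66.1, 57.3, and 57.6 CPM at ZT16, and 87.4, 59.9, 40.3, 51.1, and 59.4 CPM at ZT20. The highest cKOt values fell at ZT12 and ZT8, but all 6 cKOt groups overlapped in range with their neighbours.

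By group mean, Fgg in cKOt mice ran from 91.1 ± 34.8 CPM at ZT12 through 68.1 ± 26.6 at ZT8, 64.9 ± 13.8 at ZT0, 63.4 ± 12.9 at ZT4, and 59.6 ± 17.4 at ZT20 to 58.1 ± 8.78 at ZT16 (SD, n = 5 each). Control means ran from 9.49 ± 5.97 CPM at ZT4 through 5.54 ± 0.626 at ZT0, 5.43 ± 0.873 at ZT8, 5.33 ± 1.45 at ZT20, and 5.06 ± 0.300 at ZT12 to 3.40 ± 1.13 at ZT16 (SD, n = 5 each). The lowest cKOt mouse had 40.3 CPM, and the highest control mouse 19.9 CPM.

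Fgb was by far the least abundant of the chains. In control mice it had 2.21, 1.45, 0.675, 1.16, and 0.464 CPM at ZT0, 1.04, 1.33, 2.36, 1.26, and 0.414 CPM at ZT4, and 0.464, 0.703, 0.742, 0.630, and 0.685 CPM at ZT8. It had 0.407, 0.566, 1.01, 1.44, and 0.675 CPM at ZT12, 0.966, 0.501, 0.975, 0.761, and 1.25 CPM at ZT16, and 1.92, 1.29, 1.53, 1.73, and 1.03 CPM at ZT20. These levels rest on 7 to 43 reads per control mouse. All control mice at ZT20 (19 to 34 reads) lay above all control mice at ZT8 (8 to 14 reads). This pair of times was also picked after the values were seen, and the share of all genes with such a gap was not counted. In cKOt mice Fgb had 4.29, 6.63, 5.68, 6.02, and 3.45 CPM at ZT0, 4.77, 3.71, 6.72, 5.85, and 4.03 CPM at ZT4, and 5.50, 4.04, 6.56, 4.64, and 5.14 CPM at ZT8. It had 7.30, 3.96, 13.6, 6.48, and 5.29 CPM at ZT12, 4.41, 4.88, 4.27, 5.43, and 3.56 CPM at ZT16, and 6.99, 5.21, 4.29, 5.17, and 4.67 CPM at ZT20. Read counts of 64 to 274 per cKOt mouse lie behind these levels, and all of them exceeded the highest control mouse.

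Group means of Fgb in cKOt mice were 7.33 ± 3.73 CPM at ZT12, 5.27 ± 1.04 at ZT20, 5.21 ± 1.31 at ZT0, 5.18 ± 0.951 at ZT8, 5.02 ± 1.26 at ZT4, and 4.51 ± 0.699 at ZT16 (SD, n = 5 each). In control mice they were 1.5 ± 0.351 CPM at ZT20, 1.28 ± 0.704 at ZT4, 1.19 ± 0.689 at ZT0, 0.891 ± 0.279 at ZT16, 0.819 ± 0.410 at ZT12, and 0.645 ± 0.109 at ZT8 (SD, n = 5 each). Neighbouring groups overlapped within each genotype, and the genotypes were apart, with 3.45 CPM in the lowest cKOt and 2.36 CPM in the highest control mouse.

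**Figure D1:**
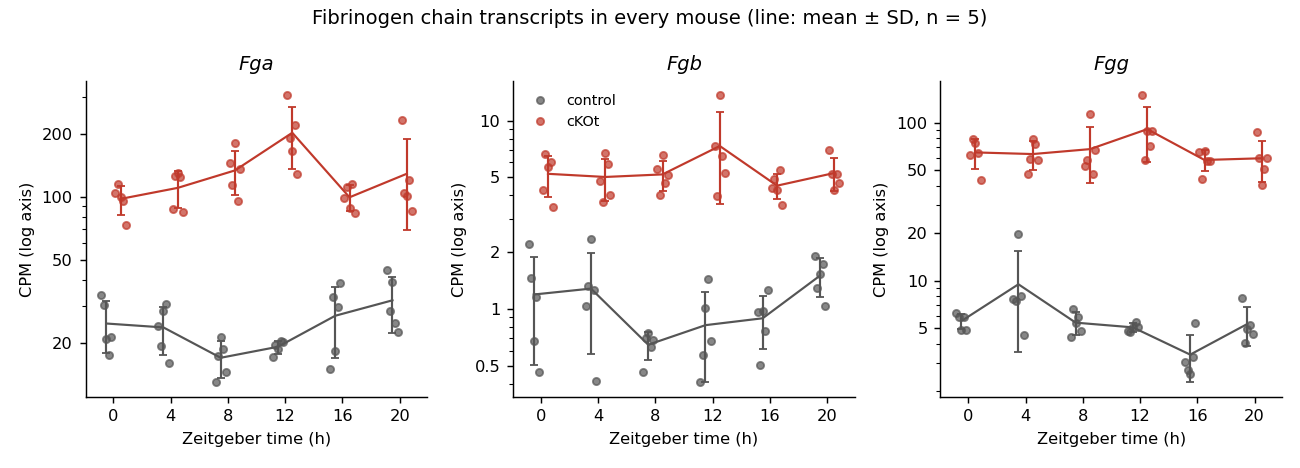
TMM-normalized level of each fibrinogen chain (CPM, log axis) in every mouse against zeitgeber time, with points for mice and lines for the mean ± SD of 5 mice per group. In each panel all 30 cKOt mice lie above all 30 control mice, and the cKOt mean is highest at ZT12.

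Averaged over the 6 time points, the fitted log2 fold change of cKOt against control mice was 2.40 for Fga (SE 0.0960), 2.41 for Fgb (SE 0.119), and 3.61 for Fgg (SE 0.0970). These are fold differences of 5.28, 5.30, and 12.2. The mean level over 30 mice went from 24.1 ± 8.08 to 128 ± 51.5 CPM for Fga, from 1.05 ± 0.525 to 5.42 ± 1.88 CPM for Fgb, and from 5.71 ± 3.01 to 67.5 ± 22.2 CPM for Fgg (SD, n = 30). Of the 15546 retained genes, 50% differed between the genotypes at an adjusted p below 0.05, 26.8% in the upward direction, but an increase of at least 4-fold was called for 0.199%. All 30 cKOt mice lay above all 30 control mice for 0.347% of the genes and below them for 0.334%, and above them for each chain. Counting from the largest increase, Fgg ranked 9th, Fgb 23rd, and Fga 24th among all retained genes, which restates how they were chosen.

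Each of the 6 library batches held both genotypes. The ratio of the mean level in cKOt to that in control mice ranged over batches from 3.74 to 6.71 for Fga, from 4.13 to 7.86 for Fgb, and from 9.58 to 14.0 for Fgg. That all cKOt mice lay above all control mice within every batch follows from the full separation given above and is no further check.

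The fitted difference at each time of day is given next, without a test for the chains. Over all retained genes, 3.08% had a genotype difference that varied with time at an adjusted p below 0.05 (edgeR). For Fga the fitted log2 fold change was 1.98 at ZT0, 2.22 at ZT4, 2.99 at ZT8, 3.35 at ZT12, 1.93 at ZT16, and 1.95 at ZT20, with SEs of 0.232 to 0.244. For Fgb the values were 2.12, 2.17, 2.99, 3.10, 2.38, and 1.68 at the same times, with SEs of 0.276 to 0.313. Both were largest at ZT12, when control levels were near their trough and cKOt levels at their highest. Fgg had 3.57, 2.80, 3.69, 4.07, 4.18, and 3.36, with SEs of 0.232 to 0.254, and its smallest difference was at ZT4. That value includes the control mouse with 19.9 CPM, and the ratio of group means at ZT4 was 6.68 with it and 9.19 without it. With any single mouse left out, the ratios of group means over the 6 times lay within 3.20 to 11.4 for Fga, 3.22 to 11.0 for Fgb, and 5.90 to 20.0 for Fgg.

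**Figure D2:**
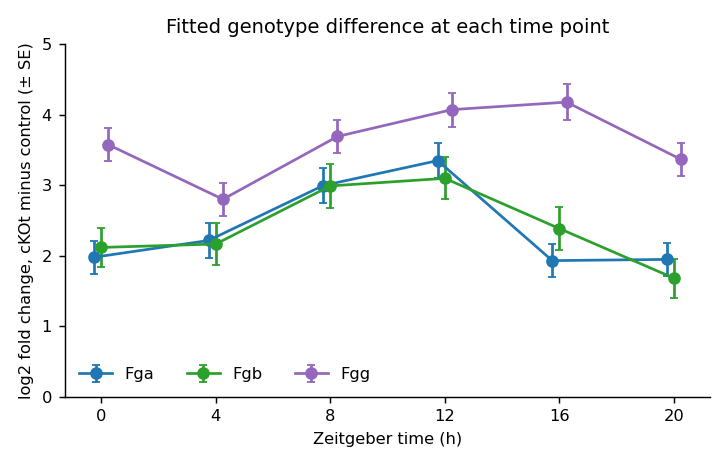
Fitted log2 fold change of cKOt against control mice at each zeitgeber time for the 3 chains, with bars for the SE of the fit. Fga and Fgb run together from 1.68 to 3.35 and peak at ZT12, and Fgg stays above them, between 2.80 and 4.18.

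Harmonic fits with a period of 24 h described the daily course, and amplitudes are the log2 distance between peak and trough. In control mice the amplitude was 0.78 for Fga (peak ZT20.5), 0.90 for Fgb (peak ZT21.8), and 0.90 for Fgg (peak ZT3.59). In cKOt mice it was 0.67 for Fga (peak ZT11.2), 0.22 for Fgb, and 0.35 for Fgg, and over the alternatives it ranged from 0.64 to 0.69, from 0.12 to 0.41, and from 0.23 to 0.50. Among the 5 rhythm models of dryR, weighed by the Bayesian information criterion (BIC), Fga was assigned to altered rhythm with a weight of 0.776, and Fgb and Fgg to loss of rhythm with weights of 0.867 and 0.905. Of all retained genes, 2.37% were assigned to altered rhythm, 6.25% to loss of rhythm, 3.42% to gain of rhythm, 25.2% to the same rhythm in both genotypes, and 34% to no rhythm, and 28.7% were unassigned. The time points of the peaks thus differed between chains in control mice, with Fga and Fgb late in the dark phase and Fgg early in the light phase. These assignments were not firm when replicates were left out. Without replicate 1, Fgb was assigned to no rhythm (control amplitude 0.55) and Fgg was unassigned, without replicate 2 both Fga and Fgb were unassigned, and without replicate 3 or 5 Fga was unassigned.

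To compare the chains with each other, levels were divided by the length of the annotated exons, which is 3010 bases for Fga, 3810 for Fgb, and 2093 for Fgg. On this scale (CPM per kb), median levels in control mice were 7.05 for Fga, 2.44 for Fgg, and 0.261 for Fgb. In cKOt mice they were 37.8 for Fga, 29.3 for Fgg, and 1.35 for Fgb. The chains therefore did not stand in the equal proportions in which the protein holds them, in either genotype. The median ratio of Fga to Fgg was 2.82 in control mice, from 0.999 to 8.46, and 1.25 in cKOt mice, from 0.934 to 2.29. The ratio of Fga to Fgb had medians of 30.3 and 28.6 in the same genotypes, and that of Fgg to Fgb 10.1 and 22.9. As a share of the 3 chains, Fgg took 10.5% to 48.4% (median 25.7%) in control mice and 30.1% to 50.8% (median 43.5%) in cKOt mice. Fgb took 1.06% to 4.02% and 1.10% to 3.54%. Only 1 transcript of Fgb is annotated, with a length of 3810 bases. With the longest annotated transcript of each gene in place of all exons, the median ratio of Fga to Fgb was 35.2 in control and 33.3 in cKOt mice.

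Whether the chains vary together between mice of the same group is independent of the group levels by which they were picked. The level of each chain (logCPM) was expressed as its deviation from the mean of its group, and pairs of chains were correlated over 60 mice. Fgb and Fgg had a Pearson r of 0.63 and a Spearman rho of 0.64, with adjusted permutation p = 3e-05 for both, the smallest that the permutations can give after adjustment. For Fga and Fgg the values were r = 0.59 (adjusted permutation p = 6e-05) and rho = 0.52 (adjusted permutation p = 0.0003). Fga and Fgb were the least close, with r = 0.43 (adjusted permutation p = 0.00141) and rho = 0.46 (adjusted permutation p = 0.00083). The unadjusted permutation p values of r were 1e-05, 4e-05, and 0.00141, two-sided, over these 3 pairs. Without the 2 mice farthest from the median of the first chain, r was 0.59 (Fgb and Fgg), 0.58 (Fga and Fgg), and 0.45 (Fga and Fgb).

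The correlations were positive in both genotypes. Among 30 control mice r was 0.70 for Fgb and Fgg, 0.56 for Fga and Fgg, and 0.43 for Fga and Fgb, and among 30 cKOt mice 0.56, 0.62, and 0.45. The permutations kept mice within groups but not within library batches. Within library batches of 9 to 12 mice r varied more. For Fgb and Fgg, r ran from 0.15 to 0.87 over the 6 batches and was positive in all of them. For Fga and Fgg it ran from -0.044 to 0.75, and for Fga and Fgb from -0.086 to 0.55, with batch 2 the single negative value in both. Leaving out the mice with replicate number 5 lowered r for Fga and Fgb to 0.25 (permutation p = 0.123, unadjusted). Leaving out any single mouse kept it between 0.39 and 0.49.

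**Figure D3:**
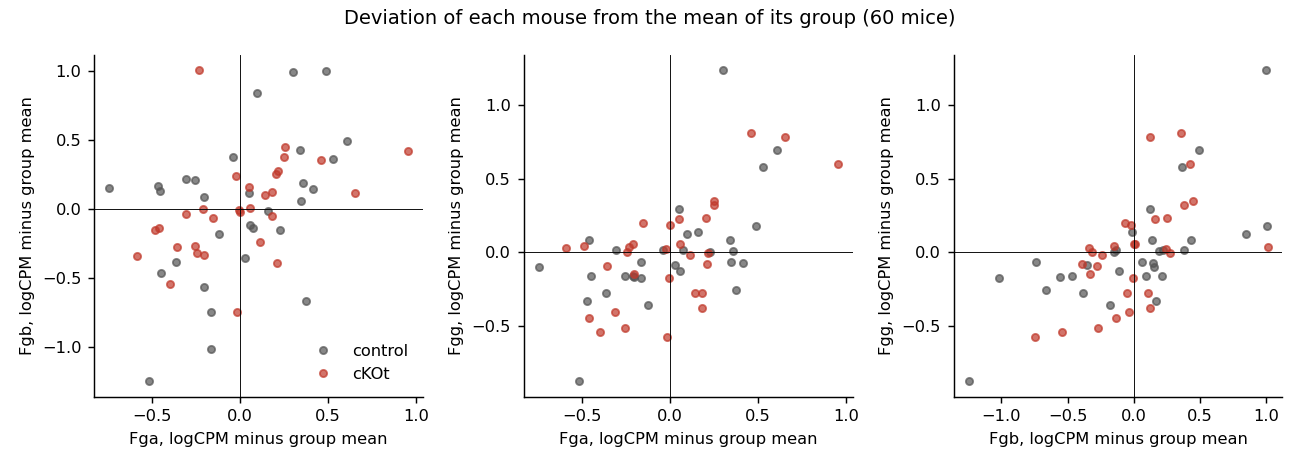
Deviation of each of 60 mice from the mean of its group (logCPM), for each pair of fibrinogen chains, with control mice in gray and cKOt mice in red. Points rise together in all 3 panels, most closely for Fgb and Fgg (r = 0.63).

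Counting error set a floor to this for Fgb. In control mice the SD of log2 CPM within groups was 0.66 for Fgb, and its small read counts alone give 0.37. For Fga the corresponding values were 0.39 and 0.073, and for Fgg 0.41 and 0.15. In cKOt mice the within-group SDs were 0.37 (Fga), 0.39 (Fgb), and 0.39 (Fgg), against counting errors of 0.031, 0.15, and 0.042. Counting error was thus the smaller share of the spread for all chains, but not a minor one for Fgb in control mice.

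The genes next to the cluster were examined for position alone, a choice made after the chains had been seen. Within 150000 bases on either side, 3 genes besides the chains passed the filter on low levels. Lrat, the enzyme that esterifies retinol, has its nearer edge 103750 bases before the start of Fgg, on the opposite strand. Its level was 3.77 ± 1.44 CPM (1.5 to 7.80) in control and 11.8 ± 3.29 CPM (6.46 to 17.9) in cKOt mice (SD, n = 30), or a fitted log2 fold change of 1.65 (SE 0.083, adjusted p = 4.00e-24, edgeR's quasi-likelihood test). The long noncoding RNA Gm30097 runs on the - strand and overlaps the first 765 bases of Fgg from the other side. It had 0.944 ± 0.390 CPM in control kidneys against 2.93 ± 0.754 CPM in cKOt kidneys (SD, n = 30), or a fitted log2 fold change of 1.61 (SE 0.10, adjusted p = 1.06e-19 in the same edgeR test). The libraries kept strand, but the strand setting of the counting is not given in the sources used here, so reads of Gm30097 and Fgg in this overlap may not be told apart. On the far side, Plrg1, a splicing factor whose start lies 5658 bases from that of Fgb in the opposite direction, had 31.2 ± 3.15 CPM and 33.7 ± 2.67 CPM (SD, n = 30). Its log2 fold change was 0.10 (SE 0.026, adjusted p = 0.000722 in the same edgeR test). Rbm46 and Dchs2 stayed below 1 CPM in every mouse.

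**Figure D4:**
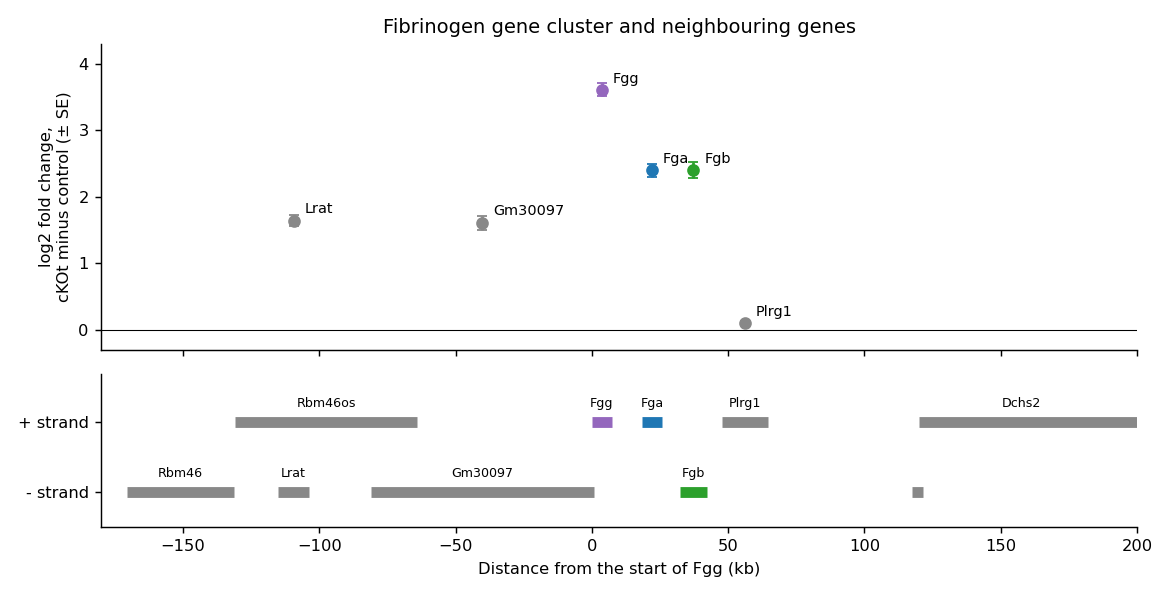
Top, fitted log2 fold change of cKOt against control mice (± SE) for retained genes around the fibrinogen cluster, and bottom, the extent and strand of all genes in the same span, both against distance from the start of Fgg in kb. The chains lie at 2.40 to 3.61, Lrat and Gm30097 at 1.65 and 1.61, and Plrg1 at 0.10.

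Transcription factors and cytokine receptors that act on fibrinogen genes in liver were called in both directions. Of 19 regulators, 16 were measured, of which 3 were higher, 5 lower, and 8 not called in cKOt mice. Their median log2 fold change was -0.031, beside 0.012 over all retained genes, of which 26.8% were called higher and 23.2% lower. Il6st, the gp130 receptor subunit through which interleukin-6 signals, was lower in cKOt mice, with 327 ± 27.1 CPM against 260.1 ± 18.2 CPM (SD, n = 30). Its log2 fold change was -0.34 (SE 0.026, adjusted p = 1.20e-16, edgeR's quasi-likelihood test). Osmr, the oncostatin M receptor, fell by 0.14 on the log2 scale (SE 0.056, adjusted p = 0.0320, below the threshold in 8 of 14 alternative fits), and the kinase Jak1 fell by 0.11 (SE 0.019, adjusted p = 1.48e-06). For Nr3c1, the glucocorticoid receptor, the value was -0.068 (adjusted p = 0.0269, below the threshold in 10 of 14). Stat3, the factor that carries the interleukin-6 signal to the nucleus, had 0.028 (SE 0.029, adjusted p = 0.433). Its feedback inhibitor Socs3 had -0.15 (SE 0.10, adjusted p = 0.225). The cytokine genes Il6, Osm, and Lif, named here after their values were seen, did not pass the filter.

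Other acute phase proteins gave a divided picture. Of 20 listed, 11 were measured, of which 4 were higher, 2 lower, and 5 not called, with a median log2 fold change of 0.075. Cp, the copper ferroxidase ceruloplasmin, went from 46.6 ± 10.3 to 75.7 ± 10.9 CPM (SD, n = 30), or a fitted log2 fold change of 0.71 (SE 0.053, adjusted p = 2.73e-17, edgeR's quasi-likelihood test). Apcs, serum amyloid P, rose by a log2 fold change of 0.69 (SE 0.14, adjusted p = 2.98e-05). C3, the central complement component, fell by 0.44 (SE 0.091, adjusted p = 5.35e-05). Lcn2, a lipocalin and marker of tubular damage, was at 1.43 ± 0.521 CPM and 1.67 ± 0.598 CPM (SD, n = 30), with a log2 fold change of 0.23 (adjusted p = 0.0469) that passed the threshold in 4 of 14 alternative fits. Serum amyloid A genes and Crp, also named after their values were seen, did not pass the filter. The highest log2 fold change among these acute phase genes was that of Cp.

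Genes of coagulation were present in kidney at widely different levels. Of 15 coagulation factors, 9 were measured, 3 higher, 2 lower, and 4 not called, with a median log2 fold change of 0.092. F13b, the carrier subunit of the factor that crosslinks fibrin, was abundant, with 158 ± 16.4 CPM in control kidneys against 199 ± 26.2 CPM in cKOt kidneys (SD, n = 30), or a fitted log2 fold change of 0.30 (SE 0.026, adjusted p = 5.59e-15, edgeR's quasi-likelihood test). Kng2, a kininogen, rose by 0.21 (SE 0.026, adjusted p = 1.86e-09). F3, tissue factor, which starts coagulation outside the vessel, fell by 0.20 (SE 0.043, adjusted p = 7.15e-05). Of 11 inhibitors of coagulation, 10 were measured, 4 higher, 2 lower, and 4 not called, with a median of 0.089. Tfpi2, a Kunitz-type protease inhibitor, went from 15.1 ± 3.78 to 27.7 ± 3.75 CPM (SD, n = 30), or a fitted log2 fold change of 0.89 (SE 0.042, adjusted p = 3.18e-25). Tfpi, the inhibitor of the tissue factor pathway, rose by 0.30 (SE 0.050, adjusted p = 1.35e-06), while Proc (protein C) fell by 0.24 (SE 0.033, adjusted p = 1.15e-08) and Serpinc1 (antithrombin) fell by 0.28 (SE 0.11, adjusted p = 0.0272, below the threshold in 11 of 14 alternative fits). Thbd, thrombomodulin, had -0.071 (SE 0.032, adjusted p = 0.0578).

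Fibrinolysis genes, which govern the removal of fibrin, also moved in both directions. Of 12 listed, 11 were measured, 3 higher, 4 lower, and 4 not called, with a median log2 fold change of -0.064. Plau, urokinase, is made by the tubule in quantity and had 428 ± 101 CPM in control kidneys against 562 ± 105 CPM in cKOt kidneys (SD, n = 30), or a fitted log2 fold change of 0.38 (SE 0.053, adjusted p = 2.25e-08, edgeR's quasi-likelihood test). S100a10, part of a cell surface receptor for plasminogen, rose by 0.48 (SE 0.031, adjusted p = 2.38e-19). Serpine2, a serine protease inhibitor that acts on plasminogen activators, fell by 0.30 (SE 0.040, adjusted p = 3.96e-09), and Plat, tissue plasminogen activator, had -0.064 (adjusted p = 0.170).

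Cell surface receptors for fibrinogen and fibrin numbered 11, of which 10 were measured, 3 higher, 6 lower, and 1 not called, with a median log2 fold change of -0.14. Itgav, the alpha v integrin of many epithelial cells, rose by 0.20 (SE 0.025, adjusted p = 8.52e-10, edgeR's quasi-likelihood test). The leukocyte integrins Itgax and Itgb2 and the adhesion receptor Icam1 were lower, with falls of 0.25 for Itgax (SE 0.078, adjusted p = 0.00579, below the threshold in 13 of 14 alternative fits), 0.21 for Itgb2 (SE 0.079, adjusted p = 0.0221, in 12 of 14), and 0.20 for Icam1 (SE 0.045, adjusted p = 0.000179). Itgb3 fell by 0.21 (SE 0.085, adjusted p = 0.0369, below the threshold in 9 of 14 alternative fits). The macrophage marker list moved in the same direction, with 5 of 6 genes lower and none higher, beside 23.2% lower over all retained genes, and a sum of 75.0 to 147 CPM in control and 81.0 to 118 CPM in cKOt mice. Its part in these results was not tested.

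Among 19 proteins that share the fibrinogen-like domain of the beta and gamma chains, 14 were measured, 3 higher, 5 lower, and 6 not called, with a median log2 fold change of -0.077. Angptl4, an inhibitor of lipoprotein lipase, went from 34.4 ± 10.1 to 12.3 ± 10.2 CPM (SD, n = 30), with a log2 fold change of -1.62 (SE 0.16, adjusted p = 8.29e-13). Angptl7 had 20.7 ± 11.1 CPM in control kidneys against 1.76 ± 0.640 CPM in cKOt kidneys (SD, n = 30), or a fitted log2 fold change of -3.45 (SE 0.12, adjusted p = 1.23e-30). Fgl1, fibrinogen-like protein 1, fell by 0.58 (SE 0.092, adjusted p = 4.50e-07).

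Across these 7 lists, 107 genes were named and 81 measured, of which 23 were higher and 26 lower in cKOt mice. That is 60.5% called, beside 50% of all retained genes. Their fitted log2 fold changes ran from -3.45 to 2.24, with a median absolute value of 0.20 against 0.10 over all retained genes. The highest log2 fold change was that of Serpind1, heparin cofactor II, named here after its values were seen, which had a mean of only 0.140 CPM in control and 0.605 CPM in cKOt kidneys. The values of the 3 chains lay above all 81, which again restates how the chains were chosen.

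**Figure D5:**
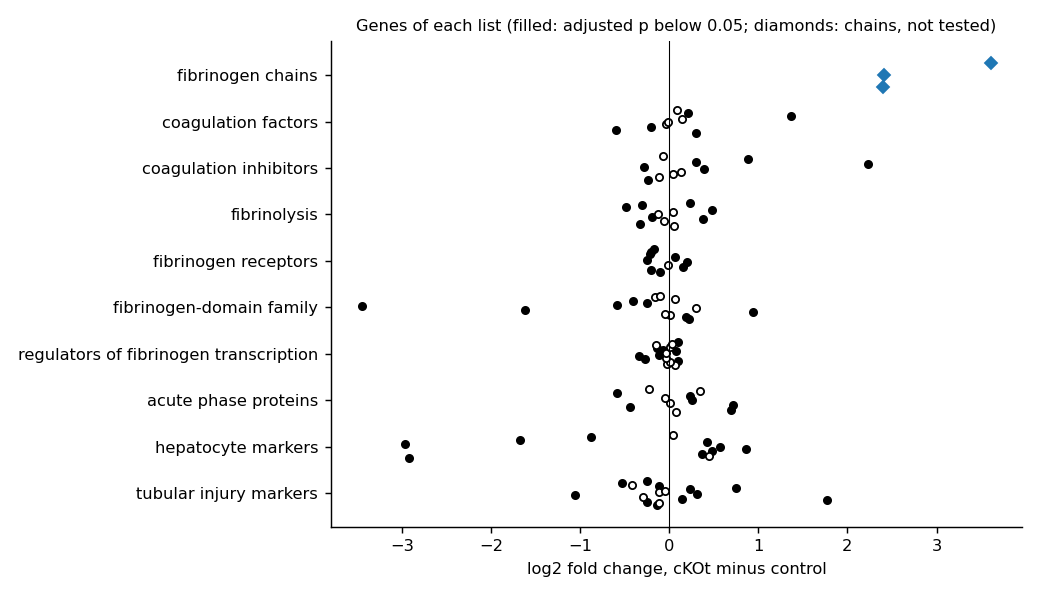
Fitted log2 fold change of cKOt against control mice for each retained gene of the lists, with filled circles for an adjusted p below 0.05 (edgeR) and open circles for the others, and diamonds for the 3 chains, which were not tested. The chains, picked for their known difference, lie at 2.40 to 3.61, to the right of all genes in the other lists.

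Genes that mark hepatocytes and other cells were measured in the same libraries. Hepatocytes express all 3 chains at high level. Of 18 hepatocyte markers, several are also made by kidney, and 11 were measured, 5 higher, 4 lower, and 2 not called, with a median log2 fold change of 0.37. Over all retained genes, 26.8% were called higher and 23.2% lower. Alb, serum albumin, was at 8.18 ± 2.30 CPM (4.56 to 16.6) in control mice and at 1.11 ± 0.602 CPM (0.413 to 2.94) in cKOt mice (SD, n = 30), or a fitted log2 fold change of -2.93 (SE 0.12, adjusted p = 8.00e-28, edgeR's quasi-likelihood test). Hrg, histidine-rich glycoprotein, went from 6.66 ± 2.06 to 0.863 ± 0.286 CPM (SD, n = 30), and Serpina1a from 21.8 ± 4.02 to 7.02 ± 2.64 CPM (SD, n = 30), both lower. Apob rose from 365 ± 47.3 to 517 ± 74.1 CPM (SD, n = 30). Apoc3, Apoh, Itih1, and Apoa2 rose as well, by log2 fold changes of 0.86, 0.57, 0.42, and 0.37 (adjusted p = 3.75e-20, 6.16e-07, 7.68e-06, and 0.000354). The 7 markers that did not pass the filter were Ahsg, Cps1, Tat, Cyp8b1, Cyp3a11, Apof, and Mup20. They had means of 0.0111 to 0.0939 CPM in control kidneys and 0.0232 to 0.115 CPM in cKOt kidneys. Each mean was higher in cKOt kidneys but rested on very few reads. Summed over 30 mice, these were 6 (Apof) to 51 (Cyp3a11) in control and 14 (Apof) to 67 (Cyp3a11) in cKOt mice. The summed hepatocyte list was 477 to 729 CPM in control and 518 to 876 CPM in cKOt mice. The list thus moved in both directions, and its part in the levels of the chains was not tested.

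Platelets carry the fibrinogen protein, and perfusion is meant to wash them out with the blood. Of 7 platelet genes, Itga2b alone passed the filter, with a log2 fold change of 0.16 (adjusted p = 0.0229, edgeR, below the threshold in 11 of 14 alternative fits), while Gp1bb had no count in any mouse, and Pf4, the highest of the others, had means of 0.208 CPM in control kidneys and 0.201 CPM in cKOt kidneys. The sum of the list was 3.50 to 7.41 CPM in control and 2.91 to 8.48 CPM in cKOt mice. Red cell markers, a measure of blood left after perfusion, summed to at most 4.42 CPM in control kidneys and 4.41 CPM in cKOt kidneys, and none of the 2 measured was called (Hbb-bs, adjusted p = 0.0967, and Hba-a1, adjusted p = 0.0966, edgeR). Endothelial markers were lower for 5 of 6 genes, and for 3 of them without replicate 3, beside 23.2% lower over all retained genes, with a sum of 342 to 429 CPM in control and 302 to 395 CPM in cKOt mice. Of 10 markers of other nephron segments, 5 were higher and 2 lower, beside 26.8% and 23.2% over all retained genes. Without replicate 2, 3 of these markers were higher.

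Because injured tubules express fibrinogen, a list of 17 injury markers was examined. Of 16 measured, 5 were higher, 6 lower, and 5 not called, beside 26.8% higher and 23.2% lower over all retained genes. The median log2 fold change was -0.12, and the sum was 719 to 1147 CPM in control and 719.7 to 1291 CPM in cKOt mice. Havcr1, the tubular injury molecule KIM-1, was at 2.01 ± 0.878 CPM in control kidneys against 1.77 ± 1.18 CPM in cKOt kidneys (SD, n = 30), with a log2 fold change of -0.29 (SE 0.16, adjusted p = 0.131, edgeR's quasi-likelihood test). Vcam1 fell by 0.25 (SE 0.058, adjusted p = 0.000289) and Il34 by 1.06 (SE 0.082, adjusted p = 1.61e-16). Cdkn1a, the cell cycle inhibitor p21, was higher, with 5.87 ± 3.44 CPM and 17.7 ± 5.95 CPM (SD, n = 30), or a fitted log2 fold change of 1.77 (SE 0.093, adjusted p = 2.81e-23). Myc rose by 0.74 (SE 0.12, adjusted p = 1.18e-06). The part of these cells and states in the levels of fibrinogen was not tested.

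Over the 60 mice, genes with a mean of at least 1 CPM were ranked by the mean of their correlations with the 3 chains, after removal of group means. These are descriptions, and the points share libraries. The closest was Rdh16f2, a gene of the retinol dehydrogenase family, with a mean r of 0.53 and single values of 0.40 (Fga), 0.58 (Fgb), and 0.60 (Fgg). Its own level was 30.1 CPM in control (16.3 to 60.2) and 80.5 CPM in cKOt mice (47.9 to 144), a log2 fold change of 1.46 (SE 0.099, adjusted p = 1.23e-18, edgeR's quasi-likelihood test). Then followed Ctsc, the protease cathepsin C, with a mean r of 0.48, Tspan7, a tetraspanin, with 0.47, Gsta4, a glutathione transferase, with 0.46, and Fam210b with 0.46. Ifit3b, an interferon-induced gene, had 0.46, Cx3cr1, the fractalkine receptor of mononuclear phagocytes, 0.44, and Itm2b 0.44. Unlike Rdh16f2, none of these other genes had a higher mean in cKOt mice that passed the test. Ctsc, for example, had 25.4 CPM in control kidneys and 27.0 CPM in cKOt kidneys (adjusted p = 0.0945 in the same edgeR test), and Cx3cr1 was lower in cKOt mice, at 6.47 against 5.30 CPM (log2 fold change -0.28, adjusted p = 4.15e-05).

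Over the means of the 12 groups the genes most like the chains were others, and this ranking uses the levels by which the chains were picked. It was headed by Folh1, glutamate carboxypeptidase II, followed by Arg2 (mitochondrial arginase), Bhmt (betaine-homocysteine methyltransferase), Car5b (a mitochondrial carbonic anhydrase), and Hao2 (a peroxisomal hydroxyacid oxidase). The 12 means fall into separate clusters by genotype, and so a correlation over all of them describes mostly that gap. Within the 6 means of cKOt mice, the mean r with the chains was 0.94 for Folh1, 0.80 for Arg2, 0.55 for Bhmt, 0.84 for Car5b, and 0.67 for Hao2. Within the 6 means of control mice it was 0.53, 0.41, 0.60, 0.46, and 0.29. Folh1 had 64.8 to 119 CPM in control and 214 to 407 CPM in cKOt mice, so that in these genes too no mouse of either genotype lay within the range of the other.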

How the data were processed

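The authors made the values from single reads of stranded poly(A) libraries. Per the labels, reads were demultiplexed with bcl2fastq, trimmed with cutadapt (version 1.8), aligned to GRCm38 with STAR (version 2.5.3a), and counted per Ensembl gene with HTSeq (version 0.9.1). The deposited counts are whole numbers, without normalization or pooling, and the 5 mice of each group had been selected by the authors for RNA quality and closeness to the other replicates. Reads outside genes (7.17% to 10.6% of uniquely aligned reads per sample) or ambiguous between genes (0.953% to 1.27%) are listed on lines of their own, which were left out.

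Symbols came from GENCODE M21 (55154 of 55335 identifiers matched). Genes that reached 1 CPM in 1 sample or more were kept (15546), and library sizes were scaled by TMM. Differences were fitted with the quasi-likelihood F test of edgeR (version 4.0.16) in R (version 4.3.3), with a group per genotype and time point and 2 RUVs factors, as the mean over time points of cKOt minus control. An interaction test asked whether this difference varied with time. The p values were adjusted over the whole table by Benjamini-Hochberg, and 0.05 was the threshold. Rhythm models were fitted to RUVs-corrected logCPM (prior count 2) and assigned where the BIC weight reached 0.65. RUVs and the rhythm models were written anew and tested on simulated data. Correlations used 100000 permutations of mice within groups. CPM values were not RUVs-corrected. Promoter windows came from RefSeq (GRCm38.p6), and all 3 chains were matched.

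The chains and the gene lists were chosen with earlier results of these data known. Of each pathway list, up to 4 called genes with the largest fold change and a mean of at least 1 CPM were named, together with genes chosen for their role, and some of these are not reported here. The labels do not say more than that replicates are separate samples of a group, and the methods describe them as separate mice. Alternatives were DESeq2 size factors and Wald test (version 1.42.0), library totals, limma-trend (version 3.58.1), no filter, filterByExpr, no RUVs factors, the library batch in their place, a replicate block, other prior counts, and leaving out mice.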

Additional observations from a re-analysis of the deposited data

Results flagged for a closer look

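In 3 of 36 combinations of a chain and a group of 5 mice, the highest mouse lay farther from the rest than Dixon's 95% limit for groups of this size. Chance alone gives about 1 in 20 if values are normally distributed, which was not tested. The gaps were taken on CPM and not on logCPM, and the 3 flags apply to that scale only. Fga in cKOt mice at ZT20 had 1 mouse at 233 CPM (replicate 1). Fgg in control mice had 1 mouse at 19.9 CPM at ZT4 (replicate 3) and 1 at 5.37 CPM at ZT16 (replicate 5). The control mouse at ZT4 also had the highest Fgb level of all control mice (2.36 CPM) but an Fga level of 28.6 CPM within the range of its group.

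Of the 81 measured pathway genes and 16 measured injury markers, 4 had a genotype difference that varied with time of day by the interaction test of edgeR, which called 3.08% of all retained genes. Tfpi2 (adjusted p = 0.000178) had positive log2 fold changes at all 6 time points, from 0.46 at ZT0 to 1.37 at ZT12. Angptl7 (adjusted p = 0.0242) had negative ones throughout, from -2.36 at ZT0 to -4.67 at ZT12. Cdkn1a (adjusted p = 7.66e-05) had 2.96 at ZT12 and 0.92 at ZT20. For Myc (adjusted p = 0.000139) the value was 2.08 at ZT12, 0.067 at ZT16, and -0.70 at ZT20.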

How the results depend on the processing

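The log2 fold changes of the chains moved little over 13 alternative fits each, from 2.32 to 2.47 for Fga, from 2.34 to 2.46 for Fgb, and from 3.55 to 3.65 for Fgg, and no direction changed. Numbers of genes higher or lower in cKOt mice ranged from 3442 to 4175 and from 2938 to 3887. The number of genes called for the interaction fell from 479 to 263 without RUVs factors and to 312 with the library batch in their place, and the cause was not tested. With each replicate number left out in turn, r lay between 0.25 and 0.51 for Fga and Fgb, and it no longer passed the threshold without number 5. Rhythm models were the same as reported in 5 of 8 alternatives for Fga, 6 of 8 for Fgb, and 7 of 8 for Fgg. The amplitude in control mice ranged from 0.65 to 0.94 for Fga, from 0.55 to 1.15 for Fgb, and from 0.69 to 1.16 for Fgg. Mice that share a replicate number did not deviate together, with a mean correlation of 0.0044 over 330 pairs from different groups, while it was 0.036 over 270 pairs of the same library batch. With a replicate block and 2 RUVs factors the log2 fold changes were 2.39 (Fga), 2.40 (Fgb), and 3.61 (Fgg), with 4144 genes higher, 3590 lower, and 465 called for the interaction, and no call of a list gene was changed. Of 448 recounts of the lists, 410 stayed within 1.5 times, 35 were lower, and 3 higher. Calls lost in some alternatives included those of Lcn2, F2, and Osmr. The use of the longest transcript and the single mice left out of correlations were chosen after seeing the data. At 7 to 43 reads per mouse, Fgb in control mice limits every ratio that includes it.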
